A study of Mus musculus with 12 samples.

Results

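The 31 genes described here encode subunits of the vacuolar proton pump (V-ATPase), proteins of the lysosomal membrane and lumen, and transcription factors of lysosome formation. They were chosen by name, and all 31 were among the 23337 gene symbols of the count table. They were measured by bulk RNA sequencing in microglia of wild type male C57BL/6N mice at postnatal day 60. Of the 12 libraries, 3 were from cerebellum, 3 from striatum, 3 from hippocampus and 3 from cortex, and the question is how these genes compare between the 4 regions. Each library came from 3000 live sorted cells (TMEM119+, CD45 low, CD11b+) of tissue pooled from 3 to 5 mice, with no treatment and no altered gene. Nothing in the labels says whether replicate pools shared mice, and the p-values cover no more than the spread of these libraries, part of which may be technical.

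Lysosomes digest material taken up by a cell, and microglia, the resident macrophages of the brain, take up dying cells, synapses and myelin. The V-ATPase acidifies the lysosome: its cytosolic V1 sector splits ATP and turns the membrane-embedded V0 sector, which carries protons across the membrane. Glycoproteins such as LAMP1 and LAMP2 line the membrane, channels and transporters let ions, lipids and amino acids out, and TFEB and TFE3 are related transcription factors that switch on many lysosomal genes.

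The library with the fewest counts was striatum 2 (6479839) and that with the most was cortex 2 (14833340), and a count of 0 allows up to 0.463 CPM (counts scaled by library size) in the smallest library. All 10 microglia markers of the list were detected in every library, with a summed level of 29656 to 40677 CPM. Markers of other cells were lower: the 10 neuronal markers summed to 6.02 to 42.2 CPM per library and the 8 markers of border-associated macrophages to 257 to 861 CPM, 0.162 to 17.3 CPM was found for 7 markers of monocytes and neutrophils, with Ly6c2 at 0 counts in all 12 libraries, and the 8 markers of choroid plexus and ependyma summed to 0.0760 to 296 CPM in 11 libraries and to 847 CPM in striatum 2. Striatum 2 was also the library with the fewest detected genes (10929, against 12214 to 13614 in the others), and values without it are given beside the differences it moves most. In sorted bulk samples, fewer cells of a type and less RNA per cell cannot be told apart.

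The genes spanned more than 3 orders of magnitude in level per length (CPM per kilobase of exon merged over annotated transcripts, mean of 12 libraries). Laptm5, a lysosomal membrane protein of blood-derived and microglial cells, was highest at 1414 CPM per kilobase, followed by Lamp1 at 1016, Psap at 760.1 and the proton-conducting V0 subunit gene Atp6v0b at 746. In all 12 libraries Laptm5 lay above Lamp1 and Lamp1 above Psap, whereas Psap exceeded Atp6v0b in 7 of 12. Next came the pump accessory genes Atp6ap1 (287) and Atp6ap2 (206), then Lamp2 (189), Atp6v1g1 (143), Npc2 (132) and Atp6v1f (109). From Atp6v1e1 (96.2 CPM per kilobase) down to Npc1 (18.7) lay 17 genes. The lowest were Tfeb (13.1), Atp6v1g2 (6.29), Atp6v0e2 (0.869) and Atp6v0d2 (0.732). Of the 30 pairs of neighbours in this order, the ranges over the 12 libraries separated in 1, between Atp6v0b and Atp6ap1.

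**Figure D1:**
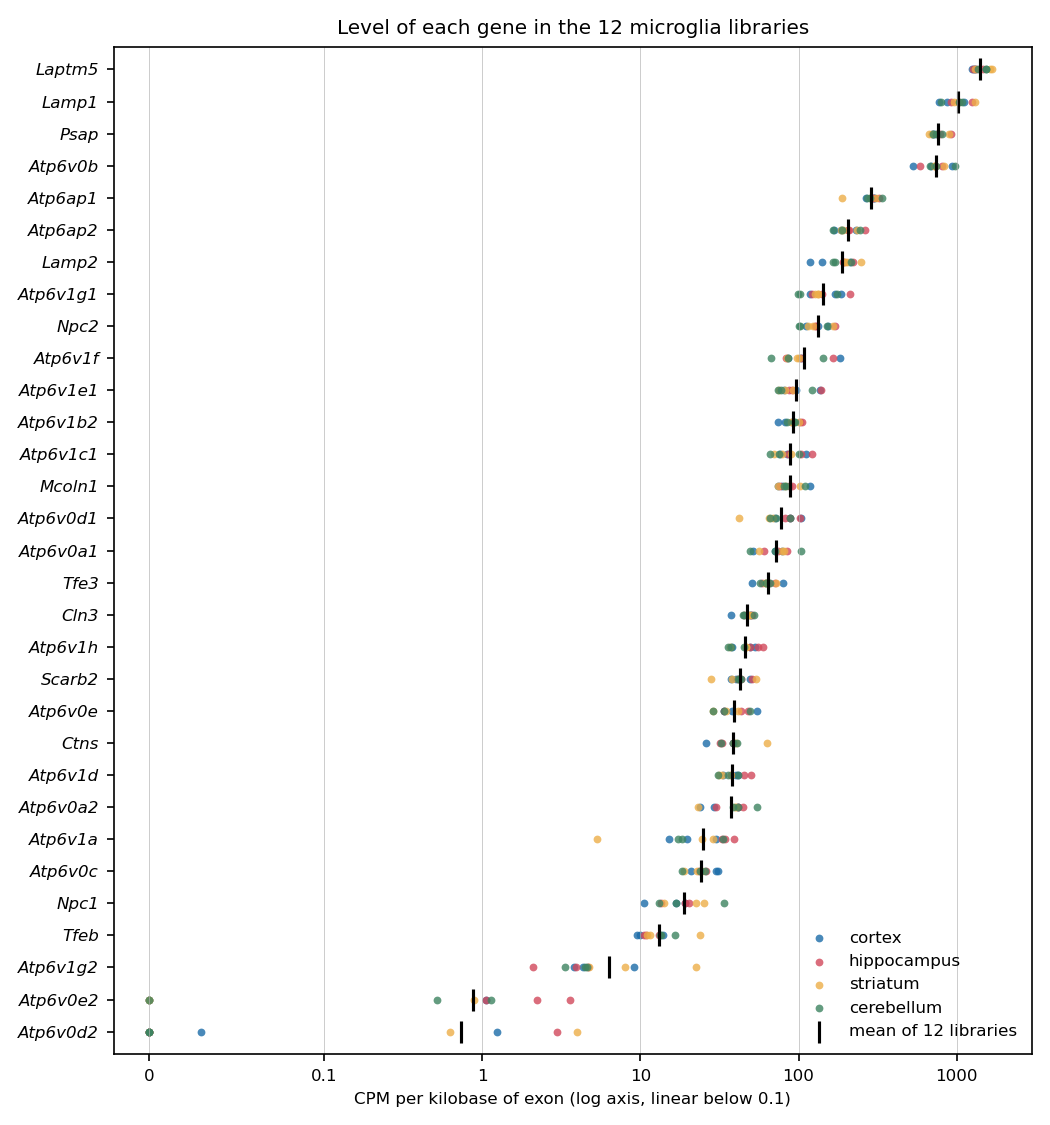
Level of the 31 genes in CPM per kilobase of exon (horizontal log axis, linear below 0.1), with 1 point per library coloured by region and a bar for the mean of 12 libraries. Laptm5 (mean 1414) is at the top and Atp6v0d2 (mean 0.732) at the bottom, and the 4 regions overlap in most rows.

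No member passed the test for a difference between the 4 regions. Over these regions, 0 of 31 passed (edgeR quasi-likelihood test, Benjamini-Hochberg adjusted p over 12217 genes, smallest member value 1.00), beside 0 of all genes (0%). At an unadjusted p under 0.05 there were 0 members, beside 1.82% of all genes. DESeq2 called 0 members over the 4 regions, beside 0.0412% of all genes, and had 1 member at an unadjusted p under 0.05, beside 3.3% of all genes. Limma-voom called 0 members, beside 0%, and had 0 at an unadjusted p under 0.05, beside 2.29%. Where the mean was 10 CPM or more (29 genes), the coefficient of variation over the 12 libraries ran from 8.28% for Cln3 to 86.5% for Atp6v1g2, with a median of 17.9%. Their median biological coefficient of variation in the edgeR fit was 0.215, against 0.351 for the 9057 genes above the same floor. The 2 sets share that floor but were not matched in level, so these medians do not show that the members were unusually steady.

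In each of the 6 pairs of regions, 0 members passed the adjusted test (edgeR), as did 0% of all genes, and limma-voom called 0 members and 0% of all genes in each pair. DESeq2 called 0 members in each pair, beside 0.0412% of all genes in hippocampus against cortex, 0.109% in striatum against cortex, 0.0576% in cerebellum against cortex, 0% in striatum against hippocampus, 0.0165% in cerebellum against hippocampus and 0.0247% in cerebellum against striatum. Between hippocampus and cortex, 24 of 31 genes lay higher in hippocampus (47.1% of all genes did), with a median log2 difference of 0.09 against −0.02 for all genes. Without hippocampus 2 the median was 0.01, with 18 genes higher, and it was 0.18 without cortex 1 and 0.15 without cortex 3. Hippocampus and cortex libraries were fully separated for 4 members, all higher in hippocampus (3.63% of all genes), and for 0 in the other direction (3.05%), and 0 members had an unadjusted p under 0.05 (1.01%). The 4 were Atp6v0e2, Atp6v1a, Atp6v1b2 and Psap. For Atp6v0e2, hippocampus 1 and cortex 3 both had 18 counts, so its separation came from library scaling alone. Between striatum and cortex, 17 lay higher in striatum (45.7%), with a median of 0.03 against −0.06. Laptm5 was higher without overlap (1 member, 4.61%), Atp6v0d1 lower without overlap (1 member, 5.96%), and 2 members, Atp6v0d1 and Lamp2, had an unadjusted p under 0.05 (5.59%), against 0 without striatum 2. Between cerebellum and cortex, 17 lay higher in cerebellum (50.9%), with a median of 0.04 against 0.01. Laptm5 was higher without overlap (1 member, 3.82%), 0 were lower without overlap (2.93%) and 0 had an unadjusted p under 0.05 (1.55%).

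Against hippocampus, 12 of 31 genes lay higher in striatum (46.1% of all genes), with a median log2 difference of −0.13 against −0.05 for all genes. That median was −0.03 without hippocampus 2 and −0.06 without striatum 2. Libraries did not overlap for 2 members that were higher in striatum, Atp6v1g2 and Ctns (4.9% of all genes), and for 5 that were lower, Atp6v0d1, Atp6v0e2, Atp6v1a, Atp6v1d and Atp6v1h (6.59%). For Atp6v0e2, striatum 3 had 20 counts and hippocampus 1 had 18, so its separation in this pair also came from library scaling alone. Atp6v0d1 and Atp6v1g2 (2 members) had an unadjusted p under 0.05 (4.34%), against 0 without striatum 2. In cerebellum against hippocampus 9 lay higher (51.3%), with a median of −0.13 against 0.01, and the median was −0.03 without hippocampus 2 and −0.07 without cerebellum 2. Without hippocampus 2, 12 genes lay higher. Tfeb was higher without overlap (1 member, 4.08%), Atp6v1h lower without overlap (1 member, 3.55%), and Atp6v1h alone had an unadjusted p under 0.05 (1 member, 1.28%). In cerebellum against striatum 17 lay higher (55.7%), but 10 without striatum 2 and 11 without cerebellum 1, and the median was 0.03 against 0.06, with −0.03 without striatum 2 and −0.09 without cerebellum 1. No member was higher without overlap (0, 3.95%), Atp6v1g2 was lower without overlap (1 member, 2.4%), and 2 members, Atp6v1g2 and Atp6v0d2, had an unadjusted p under 0.05 (2.4%), against 0 without striatum 2. The pairs share libraries, so these counts are not independent of each other.

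**Figure D2:**
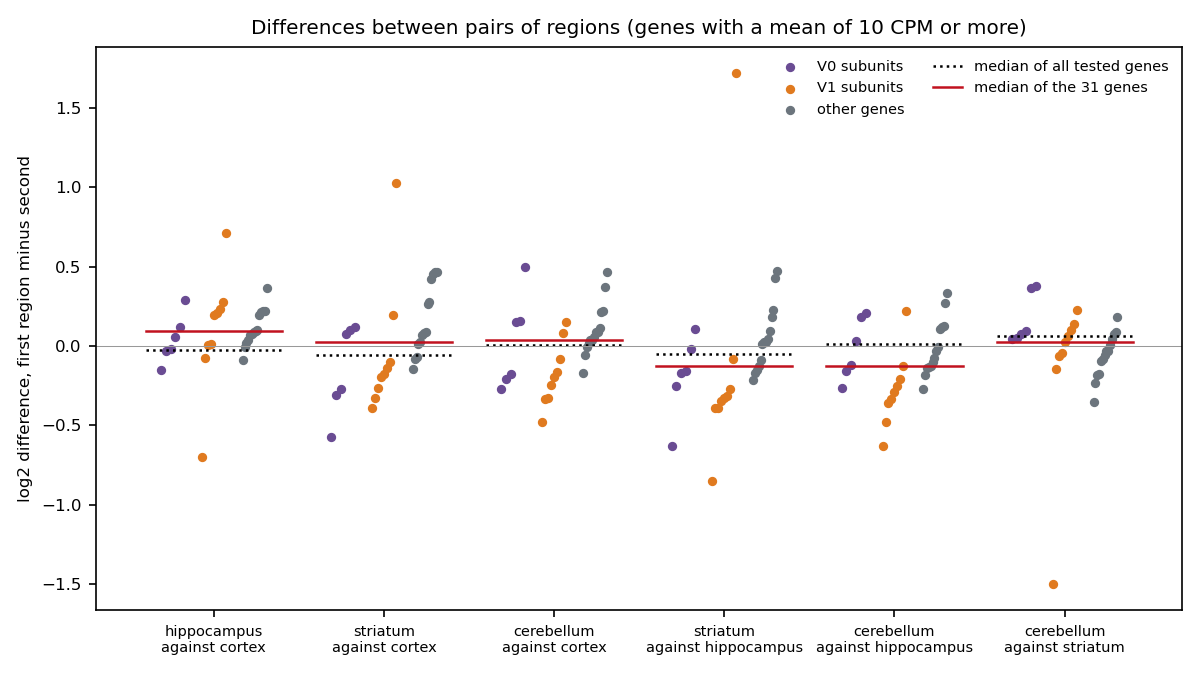
Log2 difference (first region minus second) of the 29 genes averaging 10 CPM or more in each pair of regions, with V0 subunits, V1 subunits and other genes in separate colours, the median of the 31 genes as a red line and the median of all tested genes as a dotted line. Most points lie near 0, and the 2 points farthest from it, at 1.72 and −1.50, are both Atp6v1g2.

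Among the 8 genes of the V0 sector, 6 were measured above 20 CPM in every library. Atp6v0d1 encodes the subunit that couples V0 to the central stalk (chromosome 8, 105524465 to 105566047, GRCm38). It was at 168, 115 and 144 CPM in cortex 1, 2 and 3, at 134, 167 and 143 in hippocampus, at 105, 68.1 and 113 in striatum and at 144, 117 and 108 in cerebellum. All striatum libraries lay below all cortex and hippocampus libraries and overlapped with those of cerebellum. The log2 difference was −0.63 against hippocampus (SE 0.24, 95% interval −1.15 to −0.12) and −0.58 against cortex (SE 0.24, −1.09 to −0.06), without passing (edgeR, adjusted p = 0.95 and 0.80). Without striatum 2, these were −0.44 and −0.38.

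Atp6v0b, a proteolipid of the rotating ring and the highest pump gene per length, was at 938, 530.2 and 688 CPM in cortex, 727, 804 and 583 in hippocampus, 831, 715 and 730.2 in striatum, and 981, 739 and 681 in cerebellum. The regions overlapped throughout. Atp6v0c, the other ring proteolipid, was at 23.2 to 39.0 CPM, or 24.1 CPM per kilobase. Its level is uncertain, because 2 annotated pseudogenes carry its name, 1 of them is in the count table, and how the authors treated reads that match several places is not given in the sources used here. The a-subunit genes Atp6v0a1 and Atp6v0a2, which form the proton path, averaged 272 to 302 and 169 to 239 CPM over the regions. Per length, Atp6v0a1 exceeded Atp6v0a2 in all 12 libraries, by 1.19-fold to 2.71-fold. Tcirg1, which encodes the a3 subunit known from osteoclasts and macrophages and is not among the 31 genes, was at 205 CPM per kilobase, against 71.8 for Atp6v0a1 and 37.3 for Atp6v0a2. For Atp6v0a2, 12.4% of exonic bases overlap a gene on the opposite strand, whose reads cannot be told apart with this unstranded kit. Atp6v0e, a small membrane subunit, averaged 129.6 to 157 CPM.

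Atp6v0d2, the d-subunit form of osteoclasts and some macrophages, was detected in 5 of 12 libraries. It had 0.0760, 0 and 3.13 CPM in cortex, 0, 7.48 and 0 in hippocampus, 0, 10.02 and 1.58 in striatum, and 0 counts in all 3 cerebellum libraries. Libraries with and without counts therefore occurred within cortex, hippocampus and striatum. Pooled over libraries, striatum was 29.9-fold above a floor of 3 counts over the cerebellum libraries. That rests on 82 counts, of which 62 were in striatum 2. Without that library striatum was 9.42-fold above the floor, from 20 counts in striatum 3. These folds cover counting error only and not the spread between libraries, which was large (biological coefficient of variation 2.19). In the edgeR fit, the interval of the log2 difference in cerebellum against striatum ran from −16.5 to −0.21. A much smaller difference than these folds was therefore not excluded. Atp6v0e2, a paralog of Atp6v0e described in neurons, had 0, 0 and 1.88 CPM in cortex, 1.90, 6.37 and 3.96 in hippocampus, 0, 0 and 1.58 in striatum, and 0.927, 0 and 2.04 in cerebellum. All hippocampus libraries were above 0, and 5 of the other 9 were at 0. The neuronal marker Snap25 was at 2.003, 4.06 and 1.17 CPM in hippocampus, 4.25, 2.59 and 0.209 in cortex, 0, 0 and 0.633 in striatum and 0.116, 5.39 and 2.52 in cerebellum, and its part in the Atp6v0e2 values was not tested.

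The V1 sector lay lower in striatum and cerebellum than in hippocampus for most of its genes. Of its 9 genes, 8 had a lower mean in striatum than in hippocampus (median log2 difference −0.33), where 46.1% of all genes lay higher. In cerebellum 8 had a lower mean than in hippocampus (median −0.29), where 51.3% of all genes lay higher. In either pair 0 passed (edgeR). Without hippocampus 2, the medians were −0.10 and −0.09, with 7 and 6 genes lower. Without hippocampus 3 they were −0.44 and −0.45, and without cerebellum 1 the second was −0.47. The exception in both pairs was Atp6v1g2. Against cortex, 7 of the 9 had a lower mean in striatum (median −0.18) and 7 a lower mean in cerebellum (median −0.19). Of all genes, 45.7% and 50.9% lay higher than in cortex. With 1 library left out, these medians ran from −0.26 to −0.09 and from −0.36 to −0.04, with 5 to 7 genes lower in either pair.

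Atp6v1a, which encodes the catalytic subunit that binds ATP (chromosome 16, 44085402 to 44139705, GRCm38), was at 64.4, 84.0 and 127 CPM in cortex, 138, 146 and 166 in hippocampus, 104, 22.6 and 123 in striatum, and 73.2, 78.0 and 141 in cerebellum. Hippocampus lay above all cortex and striatum libraries, and striatum 2 was far below the rest. The log2 difference from hippocampus to striatum was −0.85 (SE 0.49, edgeR adjusted p = 0.95) and −0.41 without striatum 2, and between hippocampus and cortex it was 0.71 (SE 0.48, edgeR adjusted p = 1.00). Its partner Atp6v1b2, the non-catalytic ATP-binding subunit, was among the steadiest genes, with a coefficient of variation of 9.47%. Atp6v1b2 was at 209.9, 232 and 255 CPM in cortex, 259.7, 297 and 288 in hippocampus, 285, 254 and 259.9 in striatum, and 265, 239 and 269 in cerebellum. Its hippocampus libraries lay above its cortex libraries (log2 difference 0.28, SE 0.15, edgeR adjusted p = 1.00). Although the 2 proteins sit in the same ring, the ratio of Atp6v1b2 to Atp6v1a per length ran from 2.60 to 5.45 in 11 libraries and reached 16.9 in striatum 2.

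Atp6v1h encodes a regulatory subunit needed for activity (chromosome 1, 5070018 to 5162529, GRCm38). It was at 83.1, 115 and 107 CPM in cortex, 130.3, 120.2 and 107 in hippocampus, 102, 80.5 and 102 in striatum, and 97.7, 81.6 and 77.6 in cerebellum. Hippocampus lay above cerebellum and striatum without overlap. The log2 difference was −0.48 in cerebellum (SE 0.21, 95% interval −0.94 to −0.01, edgeR adjusted p = 1.00) and −0.33 in striatum (SE 0.21, edgeR adjusted p = 0.95; −0.22 without striatum 2), both against hippocampus. Atp6v1d, a subunit of the central rotor shaft, was at 148, 122 and 151 CPM in cortex, 184, 166 and 137 in hippocampus, 137, 115 and 119.6 in striatum, and 153, 132 and 114 in cerebellum. The lowest hippocampus library stood at the highest striatum library to within 1 CPM, so the separation in that pair (log2 difference −0.39, SE 0.20) is narrow. Atp6v1c1, which regulates assembly of the 2 sectors, was at 231, 175 and 158 CPM in cortex, 214, 253 and 178 in hippocampus, 163, 185 and 145 in striatum and 209, 157 and 136 in cerebellum, with overlap in every pair.

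The peripheral-stalk genes Atp6v1e1 and Atp6v1g1 and the rotor gene Atp6v1f overlapped between all regions, with region means of 109 to 139, 142 to 179.6 and 100.4 to 132 CPM. Atp6v1g1, the highest V1 gene per length, was at 210.3, 134 and 193 CPM in cortex, 159.9, 241 and 138 in hippocampus, 150.05, 152 and 144 in striatum, and 199, 116 and 112 in cerebellum. Its high values were in cortex 1, hippocampus 2 and cerebellum 1, which were also the highest libraries of their regions for Atp6v1f and Atp6v1e1.

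Atp6v1g2, the form of the G subunit known from neurons (chromosome 17, 35233660 to 35238767, GRCm38), was the lowest V1 gene and the most variable. It was at 7.06, 17.1 and 8.15 CPM in cortex, 3.90, 7.30 and 8.70 in hippocampus, 15.0, 42.0 and 8.87 in striatum, and 8.34, 6.25 and 8.62 in cerebellum. Striatum lay above hippocampus and cerebellum without overlap, by a margin that was small for striatum 3 and large for striatum 2. The log2 difference was 1.72 against hippocampus (SE 0.69, 95% interval 0.23 to 3.22, edgeR adjusted p = 0.95) and 0.85 without striatum 2. In cerebellum against striatum it was −1.50 (SE 0.69, edgeR adjusted p = 1.00) and −0.63 without striatum 2. The summed neuronal markers were at 9.82, 15.4 and 6.02 CPM in striatum, 19.1, 42.2 and 16.9 in hippocampus, 33.7, 20.1 and 6.37 in cortex and 18.8, 38.0 and 22.2 in cerebellum, and 6 of the 10 were at 0 in striatum 2. Choroid plexus and ependymal markers summed to 43.8, 847 and 126 CPM in striatum, and the part of either marker list in the Atp6v1g2 values was not tested. For Atp6v1g2, 7.69% of exonic bases overlap Nfkbil1 on the opposite strand. Per length, Atp6v1g1 exceeded Atp6v1g2 in every library, from 5.95-fold in striatum 2 to 67.6-fold in hippocampus 1.

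**Figure D3:**
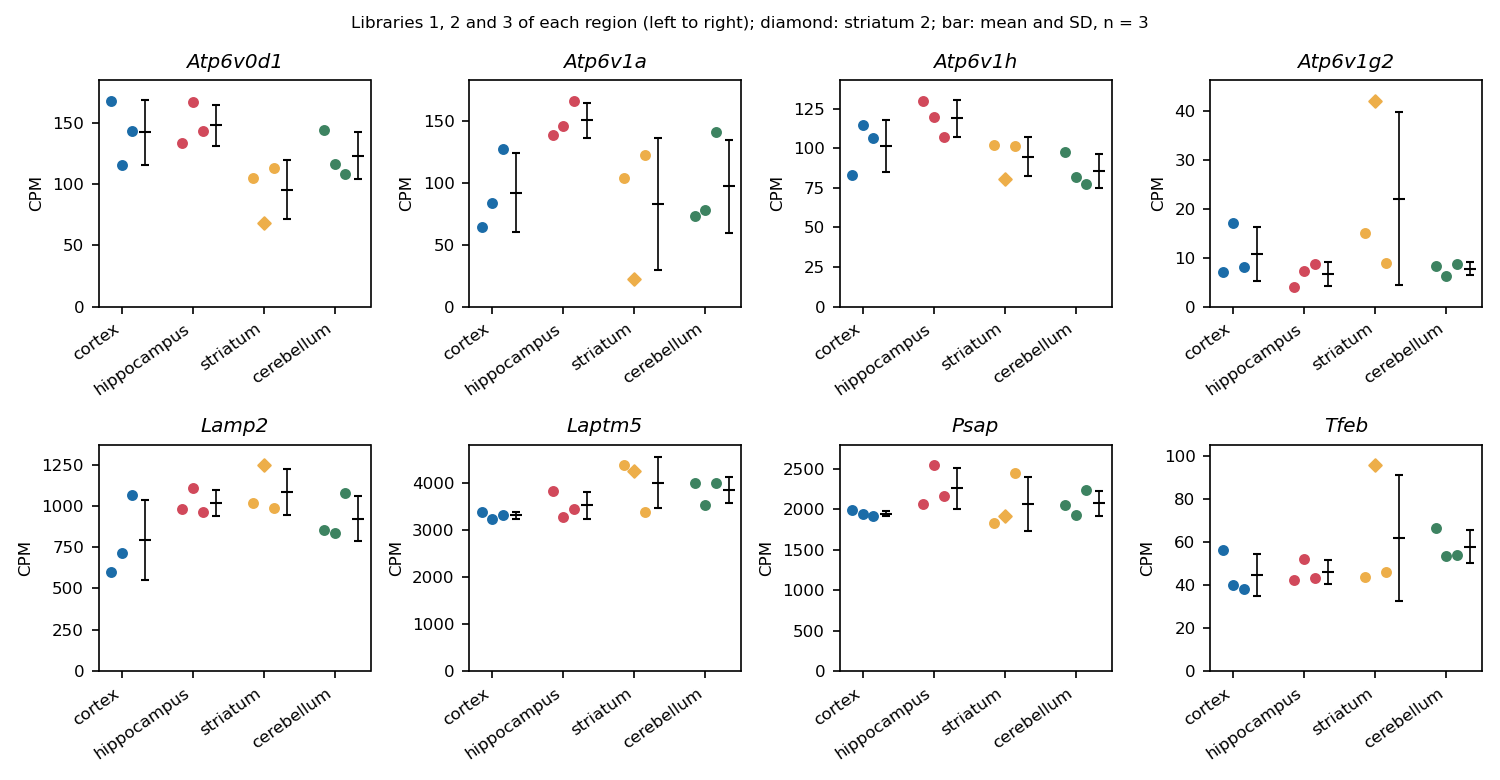
CPM of 8 genes in libraries 1, 2 and 3 of each region (points, left to right within a region), with the mean and SD (n = 3) as a black bar, striatum 2 as a diamond and each axis starting at 0. Striatum 2 is the lowest library for Atp6v0d1 (68.1) and Atp6v1a (22.6) and the highest for Atp6v1g2 (42.0), Lamp2 (1247) and Tfeb (95.9).

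The accessory genes, whose products help to assemble and direct the pump, were high and even. Atp6ap1 was at 674, 675 and 603 CPM in cortex, 660.0, 731 and 664 in hippocampus, 639, 426 and 702 in striatum, and 759, 636 and 611 in cerebellum, with the lowest value in striatum 2. Atp6ap2, also known as the prorenin receptor, was at 432, 388 and 537 CPM in cortex, 479.8, 612 and 486 in hippocampus, 433, 547 and 442 in striatum, and 568, 383 and 439 in cerebellum. Neither gene separated any pair of regions.

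Among the membrane glycoproteins and related proteins, cortex had the lowest mean for Lamp1, Lamp2 and Laptm5. Lamp2, which protects the membrane and takes part in chaperone-mediated autophagy (X chromosome, 38401357 to 38456454, GRCm38), was at 597, 714 and 1064 CPM in cortex, 981, 1111 and 962 in hippocampus, 1018, 1247 and 989 in striatum, and 855, 833 and 1080.1 in cerebellum. Cortex 1 and cortex 2 lay below every other library, and cortex 3 lay within the range of the other regions. In striatum against cortex the log2 difference was 0.45 (SE 0.20, 95% interval 0.01 to 0.90, edgeR adjusted p = 0.80), with 0.28 without cortex 1 and 0.73 without cortex 3. Lamp1, an abundant protein of the lysosomal membrane, averaged 2454 ± 422 CPM in striatum, 2386 ± 361 in hippocampus, 2173 ± 346 in cerebellum and 2048 ± 394 in cortex (SD, n = 3 for each region). The ratio of Lamp1 to Lamp2 per length stayed between 4.76 and 7.36, with cortex 1 the highest.

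Laptm5 (chromosome 4, 130913125 to 130936141, GRCm38) was at 3379, 3232 and 3332 CPM in cortex, 3841, 3286 and 3460.4 in hippocampus, 4387, 4253 and 3389 in striatum, and 4008, 3528 and 4009 in cerebellum. Its cortex libraries lay below those of striatum and cerebellum, from striatum 3 by 10 CPM. The log2 difference against cortex was 0.27 in striatum (SE 0.13, 95% interval −0.00 to 0.55, edgeR adjusted p = 0.80) and 0.22 in cerebellum (SE 0.13, −0.06 to 0.49, edgeR adjusted p = 1.00). Scarb2, which carries glucocerebrosidase to the lysosome and was the lowest of this group per length, was at 188, 176 and 233 CPM in cortex, 196, 237 and 203 in hippocampus, 179, 132 and 253 in striatum, and 202, 195 and 196 in cerebellum. The lowest and the highest Scarb2 library were both from striatum.

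Of the channels and transporters, Ctns, the cystine exporter, was at 70.8, 104 and 107 CPM in cortex, 86.5, 105 and 89.3 in hippocampus, 107, 173 and 109.7 in striatum, and 104, 88.7 and 112 in cerebellum. Striatum lay above hippocampus without overlap, by a small margin except in striatum 2. The log2 difference was 0.47 (SE 0.25, edgeR adjusted p = 0.95) and 0.21 without striatum 2. Mcoln1, the calcium channel TRPML1, was at 162, 153 and 244 CPM in cortex, 179, 159 and 187 in hippocampus, 169.8, 152 and 211 in striatum, and 171, 227 and 168 in cerebellum. Npc1, which moves cholesterol out of the lysosome, ran from 54.6 CPM in cortex 1 to 177 in cerebellum 3, and its regions overlapped (54.6, 99.6 and 87.5 in cortex, 100.1, 70.0 and 106 in hippocampus, 118, 73.9 and 131 in striatum, 68.6, 87.6 and 177 in cerebellum). Cln3, the membrane protein of juvenile Batten disease, had the smallest coefficient of variation, 8.28%, and averaged 163 ± 4.42 CPM in striatum, 159.8 ± 10.4 in hippocampus, 159 ± 13.2 in cerebellum and 153 ± 23.8 in cortex (SD, n = 3 for each region). For Cln3, 13.2% of exonic bases overlap Apobr on the opposite strand.

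The lumen held the products of Psap and Npc2. Psap encodes prosaposin, the precursor of activators of sphingolipid breakdown (chromosome 10, 60277627 to 60302597, GRCm38). It was at 1985, 1938 and 1919.9 CPM in cortex, 2063, 2546 and 2167 in hippocampus, 1836, 1913 and 2445 in striatum, and 2048, 1934 and 2234 in cerebellum. All hippocampus libraries lay above all cortex libraries, hippocampus 1 by the least. The log2 difference was 0.21 (SE 0.14, 95% interval −0.09 to 0.52, edgeR adjusted p = 1.00) and 0.12 without hippocampus 2. Npc2, the soluble partner of NPC1 in cholesterol export, was at 505, 370.3 and 439.8 CPM in cortex, 428, 564 and 419 in hippocampus, 377, 542 and 409 in striatum, and 503, 331 and 337 in cerebellum, with overlap in every pair.

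The transcription factor genes were at low to moderate levels. Tfe3 was at 183, 224 and 289 CPM in cortex, 212, 236 and 256 in hippocampus, 223, 259.9 and 227 in striatum, and 206, 225 and 238 in cerebellum, with region means of 223 to 237 CPM. Tfeb (chromosome 17, 47737030 to 47792419, GRCm38) was at 56.1, 40.1 and 38.1 CPM in cortex, 42.3, 52.4 and 43.3 in hippocampus, 43.9, 95.9 and 46.3 in striatum, and 66.7, 53.4 and 53.8 in cerebellum. Striatum 2 held the highest value, and cerebellum lay above hippocampus without overlap (log2 difference 0.33, SE 0.33, edgeR adjusted p = 1.00; 0.22 without cerebellum 1). Per length, Tfe3 exceeded Tfeb in every library, from 3.01-fold in striatum 2 to 8.42-fold in cortex 3.

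TFEB and TFE3 bind a sequence built on the letters CACGTG, which in lysosomal genes is often extended on both sides (the CLEAR element). The RefSeq table of promoters (GRCm38.p6, 250 bases before to 50 after each start site) held 24 of the 31 genes in 33 windows. It held 32851 windows for 27025 symbols, and a symbol with more windows had more chances of a match. The motifs searched read the same on both strands. The core CACGTG was found for 7 of the 24 (Atp6v0b, Atp6v0d1, Atp6v0e, Atp6v1a, Lamp1, Mcoln1 and Cln3) and for 8.09% of all 27025 symbols in the table. The longer TCACGTGA, which contains the core, was found for 5 of the 24 and for 1.12% of all symbols. Such matches describe letters in these windows and are not sites shown to be bound. The 5 stretches with TCACGTGA are shown because the same motif, in capitals, occurs in genes of the pump, a channel and another membrane protein. They are at chr8:105566050-105566079 (minus strand), chr17:26676387-26676416 (plus), chr16:44139373-44139402 (minus), chr8:3500462-3500491 (plus) and chr7:126583340-126583369 (minus), in the order of the lines.
Atp6v0d1: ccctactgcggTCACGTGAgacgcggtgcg
Atp6v0e: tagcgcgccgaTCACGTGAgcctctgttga
Atp6v1a: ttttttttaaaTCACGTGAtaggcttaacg
Mcoln1: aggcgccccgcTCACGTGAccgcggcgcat
Cln3: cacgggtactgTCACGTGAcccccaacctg

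Positions are counted from the start site of the RefSeq window that holds the motif, which can lie inside the GENCODE gene, as for Atp6v0e, Atp6v1a, Mcoln1 and Cln3. The motif centre lay at that start site for Atp6v0d1, 6 bases after it for Atp6v0e, and upstream at position −42 for Mcoln1, −118 for Cln3 and −128 for Atp6v1a. In striatum 2, where Tfeb was highest, Atp6v1a (22.6 CPM), Atp6v0d1 (68.1), Atp6v0e (106.5) and Mcoln1 (152.4) were at their lowest of the 12 libraries. Atp6v0e and Mcoln1 were close to the next library, at 106.7 in cerebellum 3 and 153.1 in cortex 2. Cln3 (158) was in the middle of its range. Of the genes with the core alone, Lamp1 (2936) was at its highest there and Atp6v0b (715) within its range. These values are from 1 library, and any link to Tfeb was not tested.

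The genes were also described library by library. The 19 pump and accessory genes summed to 3302 CPM in striatum 2 and to 4533 CPM in hippocampus 2, with 3447 to 4120 in cortex, 3830.2 to 4533 in hippocampus, 3302 to 3857 in striatum and 3603 to 4404 in cerebellum. The median deviation of the 29 genes above 10 CPM (log2 CPM minus the mean of a gene over 12 libraries) was highest in hippocampus 2 (0.25) and lowest in cortex 2 (−0.18), where the medians of all 9057 genes at that level were 0.07 and 0.05. In hippocampus 2, 23 of the 29 genes (79.3%) lay above their mean, beside 56.6% of all genes. In cortex 2 these were 7 (24.1%) beside 56.4%, and in cerebellum 2 they were 5 (17.2%) beside 57.9%. In striatum 2 the pump and accessory genes were low (median −0.30) and the other genes high (median 0.20). The median of all 9057 genes there was −0.05, and 47.4% lay above their mean. All tested genes with less than 2.72 kilobases of exon had a median of −0.31 in striatum 2, and the longer ones −0.18. These 2 medians include genes under 10 CPM, unlike those of the 29 and the 9057 genes, and so are not directly comparable with them. What part length had in the low pump values was not tested.

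**Figure D4:**
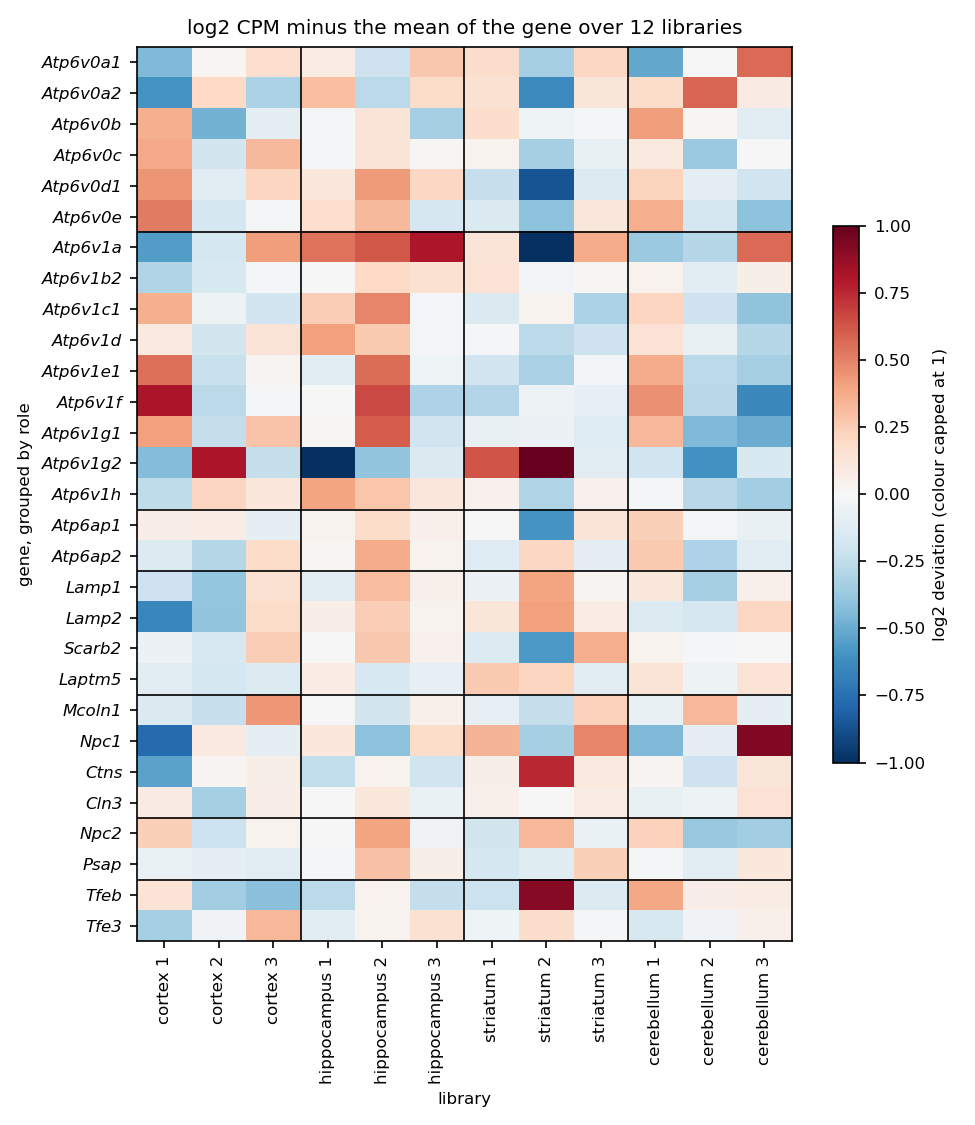
Deviation of log2 CPM from the mean of each gene over 12 libraries (blue below, red above, colours capped at 1) for the 29 genes averaging 10 CPM or more, in rows grouped by role, with libraries in columns grouped by region. Columns of the same region differ in colour, hippocampus 2 is red for 23 of 29 genes, and striatum 2 combines low pump genes with high Tfeb, Ctns and Atp6v1g2.

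Library values were also compared by exonic length, a split made after the values were seen. Of the 29 genes, 14 had less than 2.72 kilobases of exon and 15 had that length or more. The median deviation of the shorter genes minus that of the longer was 0.51 in cortex 1 and 0.19 in cerebellum 1, and it was −0.22 in cerebellum 3, −0.18 in cerebellum 2 and −0.18 in striatum 3. Over the 10998 tested genes with a length (90.02% of those tested), the same measure was 0.61 in cortex 1, 0.36 in cerebellum 1, 0.30 in hippocampus 2 and −0.42 in cerebellum 3. Unlike the 29 genes, these include genes under 10 CPM. Cortex 1 was thus high for short genes such as Atp6v1f (194 CPM) and low for long genes such as Npc1 (54.6) and Lamp2 (597), and cerebellum 3 had the reverse (70.8, 177 and 1080.1 CPM). Both kinds of library occurred within a region, and the part of length in the region differences above was not tested.

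**Figure D5:**
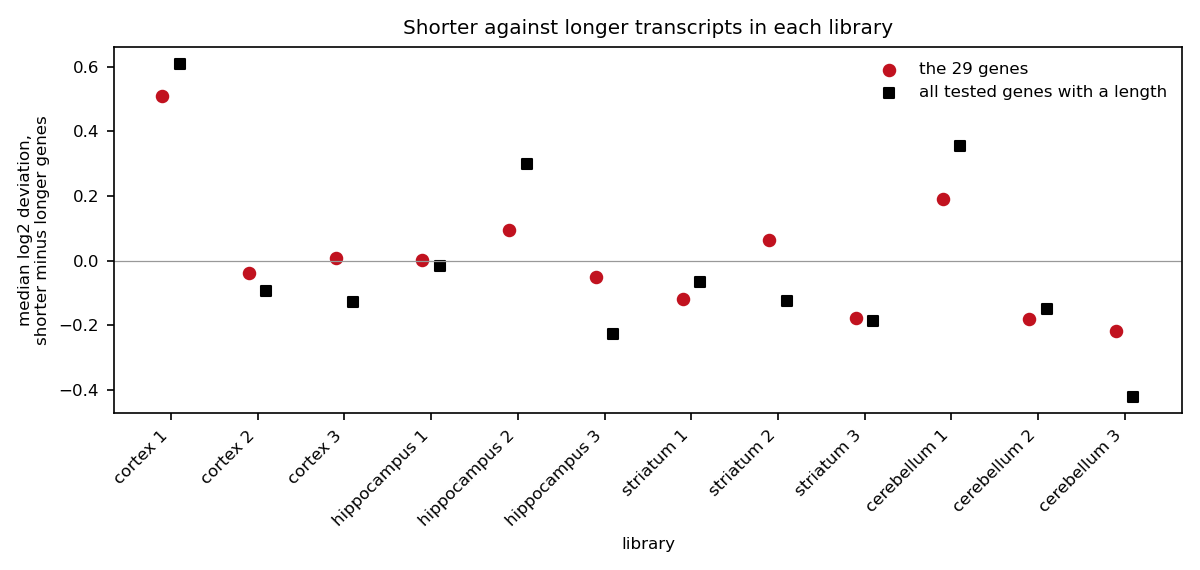
Median log2 deviation of shorter minus longer genes in each library, for the 29 genes (red circles) and for all tested genes with a length, at any level (black squares). Cortex 1 stands highest in both (0.51 and 0.61) and cerebellum 3 lowest in both (−0.22 and −0.42).

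Other genes of the pathway were taken from lists of further pump subunits and regulators, lysosomal membrane proteins, and regulators of TFEB at the lysosomal surface. Of 73 such genes 64 were tested, and 0 passed over the 4 regions or in any pair (edgeR), as did 0% of all genes. At an unadjusted p under 0.05 (edgeR) there were 0 over the 4 regions (1.82% of all genes). There were 5 in striatum against cortex (5.59%), 5 in striatum against hippocampus (4.34%) and 1 in cerebellum against striatum (2.4%). The other pairs had 0 (1.01% to 1.55%). Of the pump list, Ccdc115, an assembly factor of the V0 sector, was at 55.7, 52.1 and 63.4 CPM in striatum, at 92.1, 126 and 89.8 in hippocampus, at 133, 87.1 and 78.8 in cortex and at 126, 80.5 and 57.6 in cerebellum. All striatum values lay below those of cortex and hippocampus, as they did for 5.96% and 6.59% of all genes in these 2 pairs. Tcirg1 was at 673, 1108 and 706 CPM in striatum, with striatum 2 the highest, and averaged 574 to 678 in the other regions. Cerebellum 2 (761 CPM) and cortex 1 (711) lay above striatum 1 and striatum 3. Dmxl1 and Rogdi, which belong to the machinery that joins V1 to V0, averaged 30.9 to 55.2 and 389 to 474 CPM.

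Among the other membrane proteins, Slc17a5, the sialic acid exporter, was at 78.8, 113 and 94.9 CPM in striatum and averaged 57.9 to 65.3 elsewhere. Cortex 3, at 82.2 CPM, lay above striatum 1. Mfsd12 averaged 64.1 ± 24.6 CPM in striatum and 88.3 to 103 elsewhere, Tmem106b 76.5 to 135 CPM over the regions, and Abcb9, a peptide transporter, 2.96 to 11.5 CPM. Among the regulators, Flcn, which controls TFEB through the Rag GTPases, was at 399, 863 and 475 CPM in striatum, and Rragc, a Rag GTPase, at 166, 65.1 and 174. Striatum 2 was the highest of the 12 libraries for Flcn and the lowest for Rragc. Fnip2, a partner of folliculin, was at 105 CPM in striatum 2 and at 5.32 to 49.6 CPM in the other libraries. Rragd had 0 counts in 6 libraries: all of striatum, hippocampus 1, cerebellum 1 and cerebellum 2. It reached at most 5.98 CPM in the others.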

How the data were processed

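For 12 libraries, raw whole-number counts by gene symbol were deposited by the authors, with no normalization. Per the submitters' processing notes, the tools were STAR 2.5.3a, HTSeq, Picard and Trim Galore 0.4.3, with mm10. Their settings and the gene annotation were not stated there. Libraries were grouped by region from their titles. The analysis used edgeR 4.0.16 under R 4.3.3: filterByExpr by region (minimum count 10, minimum total 15) left 12217 genes, all 31 members among them, TMM scaling was applied, and a robust quasi-likelihood fit over the 12 libraries was tested over the 4 regions and in 6 pairs with Benjamini-Hochberg adjustment (threshold 0.05). CPM values use TMM-scaled totals. Exonic lengths and positions are from GENCODE M21 (GRCm38, the assembly of mm10). Each length is that of all exons of a gene merged over its basic-set transcripts. It can exceed the length of the transcript expressed here, so the order and ratios per length depend on this choice. DESeq2 1.42.0, limma 3.58.1 (voom), other scalings and filters, a replicate block and leaving out each library were alternatives. Fits were tested on simulated data. Same-region libraries differed by more than sampling noise (chi-square per degree of freedom 32.5 to 93.3). Total counts of 6479839 to 14833340 set the precision, and floors from 0 counts cover counting error only. All 31 members are named; values in every library are given for those that did not overlap in a pair, the 10 with the smallest p over the 4 regions, and the highest and lowest per length in each role group, plus others added after their values were seen. From each related list, the 4 genes with the smallest p were named. The 7 listed symbols that the table lacks were looked up by RefSeq synonym, and 6 matched. The members and lists were chosen with earlier results of these data known.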

Additional observations from a re-analysis of the deposited data

How the results depend on the processing

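The number of members called stayed at 0 in all 7 comparisons (the 4 regions and 6 pairs) under all 19 alternatives, and the smallest adjusted p of a member under any of them was 0.58 (DESeq2, striatum against cortex). The 18 log2 differences followed in this way kept their sign in every one of their alternatives. They were picked from these same data, by libraries that did not overlap or an unadjusted p under 0.05 (edgeR), without Atp6v0d2. Where libraries do not overlap, leaving out 1 of them can hardly reverse a sign, so that part of the check could not fail. The median log2 difference of the 31 genes kept its sign for hippocampus against cortex (0.01 to 0.18), striatum against hippocampus (−0.16 to −0.03) and cerebellum against hippocampus (−0.17 to −0.03). In the other pairs it lay near 0 and took both signs: −0.04 to 0.15 in striatum against cortex, −0.07 to 0.12 in cerebellum against cortex, and −0.09 to 0.08 in cerebellum against striatum. Leaving out 1 library at a time gave a median of -0.037 to 0.15 in striatum against cortex (highest without cortex 3) and of -0.089 to 0.076 in cerebellum against striatum (lowest without cerebellum 1). Counts at an unadjusted p under 0.05 ran from 0 to 5 over comparisons and alternatives. The 5 were in striatum against hippocampus with 1 library left out, where the share of all genes was not counted. With the replicate number as a block, 0 members were called and the median in striatum against hippocampus was −0.14. Same-numbered libraries of different regions correlated in their deviations at −0.12 to 0.29 (median 0.03, 4 of 18 pairs over 0.1), and 9 of 12 libraries correlated best with one of their own number, so the number is a hint from the data and not a stated pairing. Low counts limit Atp6v0d2 and Atp6v0e2, with 194 and 201 counts in all. Without genes under a mean of 50 counts, neither was tested.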
